A study of Mus musculus with 360 samples.

Results

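The 7 Msx and Dlx homeobox genes Msx1, Msx2, Dlx1, Dlx2, Dlx3, Dlx5 and Dlx6 were followed through sorted skeletal stem and progenitor cells of 3 mouse cranial sutures and of the tibial growth plate. They were taken by name from the 24015 genes of the count tables, and every one of them was listed there. The cells came from wild-type CD-1 mice at postnatal day 3 and had been sorted as CD51+ CD200+ and negative for 6C3, CD45, CD105, Ter119, Thy1.1, Thy1.2 and Tie2. The tissues were the posterior frontal (PF) suture, which closes in early life, the sagittal (SAG) and coronal (COR) sutures, which remain patent, and the growth plate (GP) as a reference outside the skull. The suture pieces also held the edges of the adjoining bones and the membranes on both faces. Full-length single-cell RNA-seq was performed on 2 plates per tissue. After filtering, 325 of 360 cells remained, comprising 87 PF cells (34 and 53 on plates 1 and 2), 86 SAG cells (30 and 56), 74 COR cells (16 and 58) and 78 GP cells (20 and 58). The methods tie no cell to an animal, so each tissue counted as 1 sample, and the plates gave the only spread. No p-value was computed between tissues.

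Msx and Dlx genes encode homeodomain transcription factors that bind short AT-rich DNA sequences. In the developing skull and limbs they act with BMP signals. MSX1 and MSX2 are mostly repressors, and human MSX2 mutations alter closure of the skull vault. DLX proteins are mostly activators, DLX3 and DLX5 act on genes of bone matrix in osteoblasts, and DLX and MSX proteins can oppose each other at the same targets. Most Dlx genes lie in pairs that share enhancers.

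In build mm9, Msx1 lies on the minus strand at chr5:38211724-38215822 and Msx2 on the minus strand at chr13:53562250-53568443. Dlx3 lies on the plus strand at chr11:94981403-94986610, and the gap to its neighbour Dlx4 is 15159 bp. Dlx5 (minus strand, chr6:6827805-6832085) and Dlx6 (plus strand, chr6:6813334-6818568) point towards each other across 9236 bp. Dlx1 (plus strand, chr2:71366170-71372038) and Dlx2 (minus strand, chr2:71381466-71384811) are arranged in the same way across 9427 bp. Dlx6os1 overlaps Dlx6 on the opposite strand but shares 0 bp of exon with it, whereas Dlx1as shares 670 bp of exon with Dlx1. Whether the counting used strand was not stated, so reads from the shared bases cannot be assigned.

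Of the 7 genes, 4 had a promoter in the RefSeq table (GRCm38.p6), namely Msx1, Msx2, Dlx1 and Dlx2. The 250 bases before the start of Msx1 and Msx2 are shown because these were the genes higher in all 3 sutures than in GP. They lie at chr5:37824586-37824835 and chr13:53472781-53473030 of GRCm38.p6, both on the minus strand, and are written 5′ to 3′ along the gene. Capitals mark TAATT on either strand (AATTA), the core that many homeodomain proteins recognise.
Msx1: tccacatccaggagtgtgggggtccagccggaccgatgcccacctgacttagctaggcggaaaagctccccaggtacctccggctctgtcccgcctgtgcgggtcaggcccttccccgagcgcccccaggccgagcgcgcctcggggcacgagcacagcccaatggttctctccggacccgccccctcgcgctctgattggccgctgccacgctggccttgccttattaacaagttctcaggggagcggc
Msx2: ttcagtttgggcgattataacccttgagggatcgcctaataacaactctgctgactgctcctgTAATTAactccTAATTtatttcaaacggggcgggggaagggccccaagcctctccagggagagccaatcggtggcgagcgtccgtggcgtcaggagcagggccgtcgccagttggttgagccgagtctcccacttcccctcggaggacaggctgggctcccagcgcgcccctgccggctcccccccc
The Msx2 window held 3 matches of this core, of which 2 overlap in TAATTA, and the Msx1 window held 0. The core occurred in 25.03% of all 32851 promoter windows of this length. CCAAT or its reverse complement ATTGG was found 2 times for Msx1 and 1 time for Msx2, and in 33.8% of all windows. TATAAA or TTTATA was found in neither, and in 12.4% of all windows. A match is a run of letters and not a bound site.

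Levels are reads summed over the cells of a tissue or plate, per 1000000 reads other than the ribosomal RNA precursor Rn45s (CPM). Rn45s took 26.4% to 30.5% of reads in PF, COR and GP but 80.3% in SAG, and 86.8% on SAG plate 2, whose cells had a median of 875 genes with a read against 2891.5 on SAG plate 1. Per cell, the median depth without Rn45s was 184673 reads in SAG, against 312083 (PF), 369308 (GP) and 448803 (COR). For 1 cell the labels disagreed between SAG and PF, and it was counted as SAG. Well names recurred between tables, but 0 cells shared their counts with another. A summed list of 8 hindlimb genes (Tbx4, Pitx1 and Hox genes) stood at 221 CPM in GP, 0.231 in PF and 0 in SAG and COR. Osteoblast markers summed to 33381 CPM in SAG against 101030 to 118758 in the other tissues, and chondrocyte markers to 13163 in SAG against 223 to 3262, and the part of these differences in the results was not tested. The endothelial list (Pecam1, Cdh5, Kdr and Emcn) summed to 16.4 CPM in SAG, 6.90 in COR, 2.38 in PF and 0 in GP. Pecam1 and Emcn had 0 reads in every tissue, Kdr had reads in the 3 sutures and Cdh5 in PF and COR.

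The Msx genes separated sutures from growth plate. Msx1 and Msx2 were read at 19.1 to 71.1 CPM in the sutures and at 0.983 and 4.88 CPM in GP, and 51.4% of 247 suture cells had a read of either gene (95% Clopper-Pearson interval 44.997 to 57.8) against 7.69% of 78 GP cells (2.88 to 15.99). Dlx5, the most frequent Dlx gene, did not separate them. It was read at 94.2 CPM in GP, between COR above and PF and SAG below, and a read of any Dlx gene was found in 38.5% of suture cells (32.4 to 44.8) and 48.7% of GP cells (37.2 to 60.3). Intervals cover counting error only, since PCR multiplies molecules and the cells stand for no known number of animals.

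Msx1 stood at 32.6 and 29.7 CPM on PF plates 1 and 2, at 40.3 and 88.8 CPM on the SAG plates, at 4.32 and 20.8 CPM on the COR plates, and at 0.81 and 1.02 CPM on the GP plates. Every suture plate lay above both GP plates, and COR plate 1, with 14 reads over 16 cells, was the lowest of the 6. On the log2(CPM+1) scale Msx1 was higher than in GP by 3.98 in PF (range of 4 plate comparisons 3.93 to 4.22), by 5.15 in SAG (4.35 to 5.63) and by 3.34 in COR (1.40 to 3.59). The mean over the sutures was higher by 4.36, and all 12 plate comparisons had this sign. A read of Msx1 was found in 3.85% of GP cells (0.80 to 10.8). The share was 47.1% for PF (36.3 to 58.1), 43.2% for COR (31.8 to 55.3) and 38.4% for SAG (28.1 to 49.5). The suture intervals overlapped one another and none overlapped that of GP.

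In GP the 28 Msx1 reads came from 3 cells, and 1 cell gave 78.6% of them. With every cell thinned to 100000 reads other than Rn45s, Msx1 was detected in 1.49% of GP cells and, for PF, SAG and COR, in 41.4%, 37.5% and 36.6%. The thinned GP interval (0.038 to 8.04) still lay below those of the sutures, of which the lowest began at 25.5%. The SAG plates did not look alike. On plate 1, 66.7% of cells had a read and these cells had a median of 46.4 CPM, whereas on plate 2 only 23.2% had one, with a median of 308 CPM. Per reads other than Rn45s, the higher level of plate 2 thus came from fewer cells with a higher Msx1 CPM in each. Rn45s took 86.8% of reads on plate 2 and 24.5% on plate 1, and its part in this difference was not tested.

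**Figure D1:**
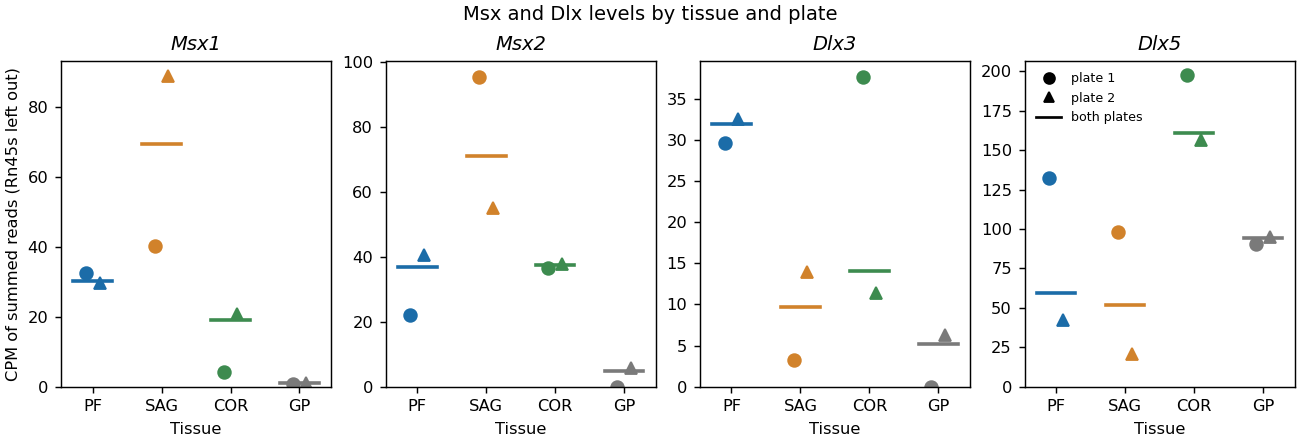
CPM of summed reads (vertical axis, Rn45s left out) of Msx1, Msx2, Dlx3 and Dlx5 in PF, SAG, COR and GP. Circles are plate 1, triangles plate 2 and lines both plates together. All suture points of Msx1 and Msx2 lie above the GP points, whereas the GP points of Dlx5 (90.3 and 94.98 CPM) lie between those of COR and the plate 2 points of PF and SAG.

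Msx2, the paralogue most tied to skull vault growth, stood at 22.1 and 40.5 CPM on the PF plates, 95.4 and 54.9 CPM on the SAG plates, 36.4 and 37.7 CPM on the COR plates, and 0 and 5.91 CPM on the GP plates. Again no suture plate overlapped GP. The log2 difference from GP was 2.69 in PF (1.74 to 5.37), 3.62 in SAG (3.02 to 6.59) and 2.71 in COR (2.44 to 5.27), and 3.07 for the mean of the sutures with 12 of 12 comparisons of that sign. The wide upper ends come from GP plate 1, where 0 reads in 20 cells allow, by a floor of 3 counts, up to 0.607 CPM and a share of up to 15% (the Clopper-Pearson upper bound was 16.8%). Msx2 was read in 3.85% of GP cells (0.80 to 10.8), while PF reached 20.7% (12.7 to 30.7), SAG 19.8% (11.96 to 29.8) and COR 24.3% (15.1 to 35.7). Of its 139 GP reads, 66.9% came from 1 cell. Over the sutures, 53 cells carried Msx2 and 106 carried Msx1.

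Among all genes that reached 10 CPM in some tissue, 1.76% passed the fold upward in the sutures against GP, defined as a log2 difference of at least 1 for the mean of the sutures and 12 plate comparisons of that sign. Of the 7 homeobox genes 2 met it, Msx1 and Msx2. Only 4 of the 7 passed the 10 CPM filter (Msx1, Msx2, Dlx3 and Dlx5), and all 7 are counted here. For single sutures the rule asks for 4 plate comparisons of one sign. It was met upward by 3 genes in PF (Msx1, Msx2 and Dlx3, background 7.56%), 2 in SAG (Msx1 and Msx2, background 12.4%) and 3 in COR (Msx1, Msx2 and Dlx3, background 6.39%). None of the 7 was lower than GP by this rule, for which the background was 8.61% in PF, 18.3% in SAG, 7.02% in COR and 3.05% for the mean of the sutures. Over all genes the median log2 difference was 0.09 for PF, 0.06 for COR and -0.25 for SAG.

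**Figure D2:**
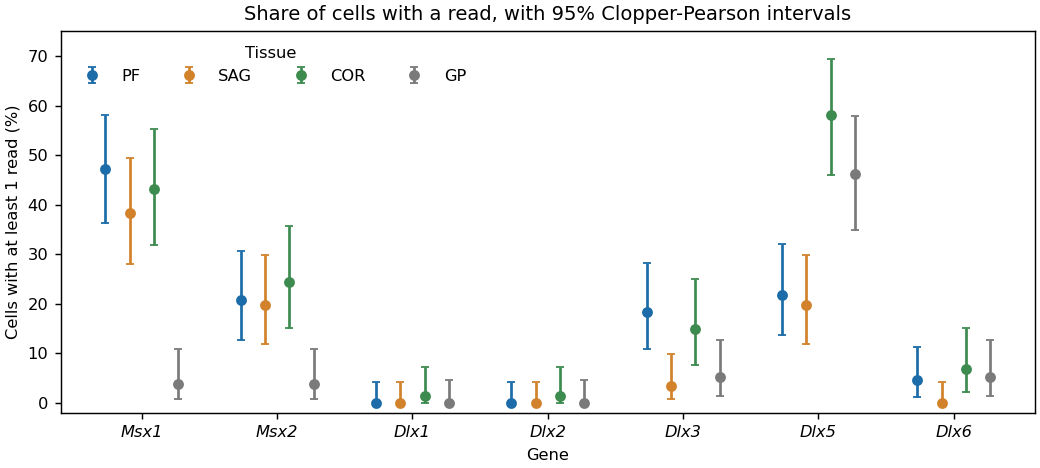
Share of cells with at least 1 read (vertical axis, percent) of each gene in PF (n = 87), SAG (86), COR (74) and GP (78), with 95% Clopper-Pearson intervals as bars. Msx1 reaches 38.4% to 47.1% in the sutures and 3.85% in GP, and Dlx5 reaches 58.1% in COR and 46.2% in GP.

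Dlx3, which acts late in osteoblast differentiation and in hair and tooth, was most frequent in PF and COR. It stood at 29.6 and 32.5 CPM on the PF plates, 3.20 and 13.9 CPM on the SAG plates, 37.7 and 11.4 CPM on the COR plates and 0 and 6.33 CPM on the GP plates. PF was higher than GP by 2.40 (2.06 to 5.07) and COR by 1.27 (0.76 to 5.27). SAG was higher by 0.77 with 3 of 4 comparisons of that sign, and the mean of the sutures by 1.65 with 11 of 12, so neither was called. The COR difference fell under the fold on plate 2 alone (0.76) and with a pseudocount of 10 CPM (0.66). Reads were found in 16 PF cells, 3 SAG cells, 11 COR cells and 4 GP cells, or 18.4%, 3.49%, 14.9% and 5.13%. In COR 1 cell gave 39.8% of the reads.

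Dlx5, a regulator of osteoblast and chondrocyte differentiation, had the highest level per length of the 7 genes in every tissue with both plates summed. Per kilobase of exon it reached 113 CPM in COR, 66.2 in GP, 41.9 in PF and 36.4 in SAG. Msx1 came close to it in SAG, at 35.9 CPM per kilobase, and on SAG plate 2 Msx1 exceeded it (45.9 against 14.8), so that its rank in SAG rested on plate 1. In GP no other member of the families exceeded 1.99 CPM per kilobase, so there the summed signal was nearly all Dlx5. By plate, Dlx5 stood at 198 and 156 CPM in COR, 90.3 and 94.98 CPM in GP, 133 and 41.99 CPM in PF and 98.2 and 20.99 CPM in SAG. COR lay above every other plate, and the PF and SAG plates fell on both sides of GP. The difference from GP was 0.76 for COR (0.71 to 1.12), of one sign, as for 18.1% of all genes, but under the fold, and -0.65 for PF and -0.85 for SAG with mixed signs.

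Cells with a Dlx5 read made up 58.1% of COR (46.1 to 69.5), 46.2% of GP (34.8 to 57.8), 21.8% of PF (13.7 to 31.98) and 19.8% of SAG (11.96 to 29.8). The intervals of COR and GP overlapped each other and not those of PF and SAG. Within cells that had it, the level varied less between tissues, with medians of 180.1 CPM in COR, 153 in GP, 214 in PF and 183 in SAG. On SAG plates 1 and 2 the share was 43.3% and 7.14%, and without plate 2 SAG was thus near GP. Thinned, the shares were 57.7% in COR, 44.8% in GP (32.6 to 57.4), 27.1% in PF (17.2 to 39.1) and 18.8% in SAG. The intervals of GP and PF then overlapped.

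**Figure D3:**
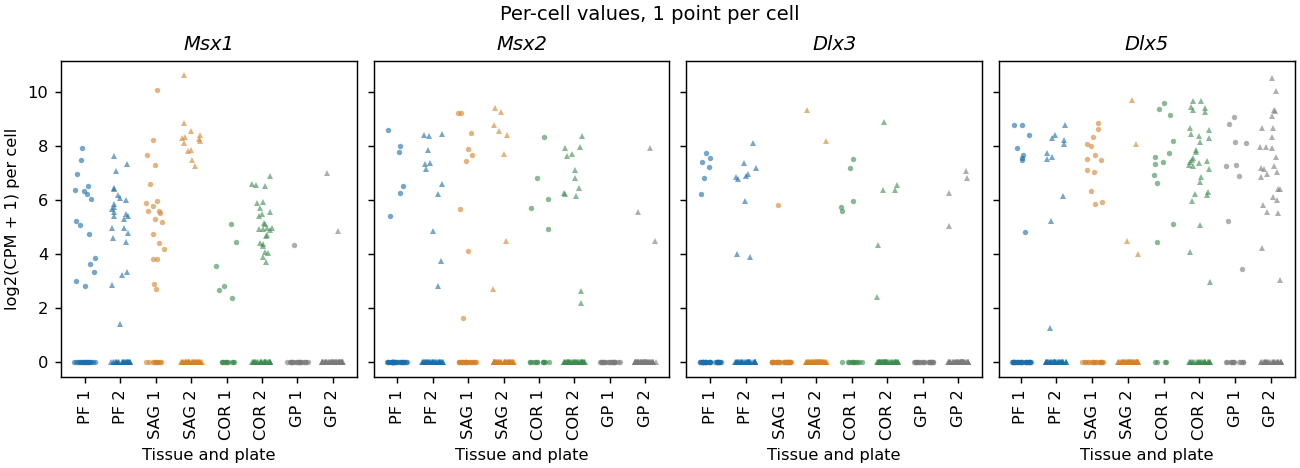
log2(CPM + 1) of Msx1, Msx2, Dlx3 and Dlx5 in single cells (1 point per cell, circles plate 1, triangles plate 2) by tissue and plate. Cells at 0 had no read. On SAG plate 2 the 13 cells with Msx1 lie between 152 and 1581 CPM. Dlx5-positive cells lie between 1.42 and 447 CPM in PF and between 15.2 and 838 CPM in SAG. In COR they lie between 6.92 and 822 CPM, and in GP between 7.32 and 1496 CPM.

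Dlx6, the partner of Dlx5, was barely read. Its level was 1.58 CPM in PF (4 cells), 0.81 CPM in COR (5 cells) and 1.02 CPM in GP (4 cells). In SAG 0 of 86 cells had a read. By the same floor of 3 counts this allows a share of up to 3.49% and 0.174 CPM (the Clopper-Pearson upper bound of the share was 4.20%). The summed PF level was 9.09-fold this floor, which covers counting error only, and 1 cell gave 56.25% of the PF reads. The share intervals of PF (1.27 to 11.4) and SAG (0 to 4.20) overlapped. Of the 9 suture cells with Dlx6, 8 also had Dlx5, and so did 3 of the 4 GP cells. By comparison 29.8% of the suture cells without Dlx6 had Dlx5. Dlx6os1, the long noncoding RNA over the Dlx6 locus, stood at 10.4 CPM in GP, 7.02 in COR and 3.73 in PF, with 0 reads in SAG. By plate it stood at 0 and 12.6 CPM in GP, 24.4 and 5.07 in COR, and 3.55 and 3.77 in PF. It was read in 5 GP, 7 COR and 2 PF cells, and the order of GP and COR changed with the plate.

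Dlx1 and Dlx2, the pair best known from forebrain and branchial arches, were read in 1 cell of 325. This COR plate 2 cell held 28 reads of Dlx1 and 61 of Dlx2. It had no read of the other 5 genes. Of the family genes outside the 7, Msx3 and Dlx1as had 0 reads and Dlx4 was read in 1 GP cell.

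Between COR and the other sutures, the summed CPM of Msx1 and Dlx5 ran in opposite directions. By this measure Msx1 was lowest in COR and highest in SAG, and Dlx5 was highest in COR. The share of cells with Msx1 was lowest in SAG (38.4%), against 43.2% in COR and 47.1% in PF, with overlapping intervals. This place of SAG rested on plate 2 (23.2%), since on SAG plate 1 the share was 66.7%. PF and SAG did not separate in Dlx5, with a difference of 0.20 and 3 of 4 comparisons of that sign. SAG exceeded COR in Msx1 by 1.81 with 4 of 4 comparisons of that sign, where 12.5% of all genes met the rule. It exceeded PF by 1.17, which 12.4% of genes met. Dlx5 was lower than in COR by the rule in both other sutures, at -1.41 for PF (background 6.6%) and -1.61 for SAG (background 18.9%). Dlx3 was higher in PF than in SAG by 1.63 (background 16.9%). Msx2 differed by less than the fold between any 2 sutures.

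The Msx1 and Dlx5 orders that involve SAG leaned on SAG plate 2. Without it, SAG exceeded PF in Msx1 by 0.40 only and COR by 1.04, and the Dlx5 difference between SAG and COR was -0.70. The Dlx5 order of PF and SAG turned, with 98.2 CPM on SAG plate 1 against 59.7 CPM in PF. Msx2 stood at 95.4 CPM on SAG plate 1. It stood at 71.1 CPM over both SAG plates, 36.9 CPM in PF and 37.6 CPM in COR. With Rn45s counted in the totals the Msx1 differences turned over, to 0.66 for PF over SAG and -0.035 for SAG to COR. The Msx1 order of PF and COR (0.64, 4 of 4 comparisons, as for 13.9% of all genes) and the Dlx5 order of the same sutures do not involve SAG, but on plate 1 alone the Dlx5 difference was -0.57.

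Added over the 7 genes, the level was 106 CPM in GP and 160.4, 202 and 235 CPM in PF, SAG and COR. Only COR passed the fold against GP, at 1.14. The sums hide different make-ups, since Msx1 and Msx2 made up much of the SAG sum and Dlx5 most of the COR and GP sums. A read of any of the 7 genes was found in 69.2% of suture cells (63.1 to 74.9) and 53.8% of GP cells (42.2 to 65.2), intervals that overlapped.

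Cells were next sorted by which family they carried. In PF 36.8% had Msx genes only, 14.9% Dlx genes only and 17.2% both. In COR the shares were 17.6%, 29.7% and 35.1%, and in SAG 36.05%, 10.47% and 11.6%. PF and SAG thus held more cells with Msx alone. In GP both families met in 2.56% of cells (0.312 to 8.96). In SAG all 10 cells with both were on plate 1, and 0 of the 56 cells of plate 2 had both. On SAG plate 1 alone the share with both was 33.3% (17.3 to 52.8), near that of COR.

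**Figure D4:**
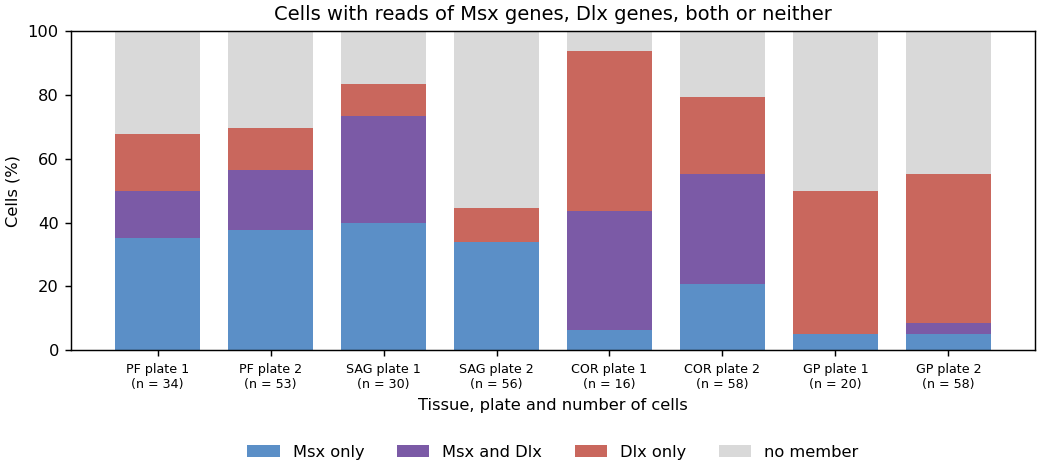
Share of cells (vertical axis, percent) with reads of Msx genes only, Msx and Dlx genes, Dlx genes only or none of the 7 genes, for each tissue and plate. Msx genes take a large share of every suture plate, GP plates hold mostly Dlx only or no member, and SAG plate 2 lacks cells with both.

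Msx1 was read more often in cells that had Msx2. Of 53 suture cells with Msx2, 60.4% had Msx1 (46.004 to 73.5), against 38.1% of the 194 without (31.3 to 45.4). The direction was the same in PF (66.7% against 42.03%), COR (61.1% against 37.5%) and SAG plate 1 (77.8% against 61.9%). Cells with a read of a gene were often deeper, and after thinning the suture shares were 48.9% and 35.6%, with intervals that overlapped.

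Cells with Dlx3 had Dlx5 more often and Msx1 less often than cells without, by intervals that overlapped slightly in both cases. Of 30 suture cells with Dlx3, 53.3% had Dlx5 (34.3 to 71.7) against 29.03% of the others (23.1 to 35.6), and 23.3% had Msx1 (9.93 to 42.3) against 45.6% (38.9 to 52.5). Thinning left the Msx1 shares at 11.5% and 42.1%, whose intervals no longer overlapped, and the Dlx5 shares at 50% and 31.8%. In PF the Msx1 shares were 31.3% and 50.7%, and in COR 9.09% and 49.2%. Msx1 itself was read in 48.1% of Dlx5 cells (36.7 to 59.6) and 40.5% of the others (32.98 to 48.3), and in 38.7% and 38.4% after thinning.

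The 24 genes fixed as the surroundings of the families comprised BMP ligands, receptors, SMADs and Id genes, partner proteins, osteoblast genes and jaw genes. Of these, 21 passed 10 CPM. In PF 5 were higher than GP and 0 lower, in SAG 1 was higher and 1 lower, and in COR 3 were higher and 0 lower, by the fold rule and against the background shares given above. Their median difference was 0.10 in PF, 0.16 in COR and 0.03 in SAG, near the medians over all genes in PF and COR. Among the 9 genes of BMP input, Id1 in COR was the only one past the fold. The genes past it in more than 1 suture were Sp7, the osterix gene that commits cells to the osteoblast line, and Alpl, which encodes bone alkaline phosphatase. Sp7 stood at 58.2 CPM in GP and at 231, 69.2 and 281 CPM in PF, SAG and COR. Alpl stood at 461 CPM in GP and at 1004, 257 and 1075 CPM in the sutures in that order. Sp7 was thus higher in PF by 1.97 and in COR by 2.25, and Alpl by 1.12 and 1.22.

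Which suture cells carried osteoblast genes differed by member. Of the 30 cells with Dlx3, 83.3% had Sp7 (65.3 to 94.4) against 27.6% of the 217 without (21.8 to 34.1). Ibsp, the bone sialoprotein gene, was read in 73.3% and 15.2%, and Bglap, the osteocalcin gene, in 76.7% and 16.6%, although Bglap may share reads with its near copy Bglap2. All 6 osteoblast genes reported, which add Runx2, Alpl and Spp1, were more frequent in Dlx3 cells, also after thinning and within PF and COR alone.

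Dlx5 cells leaned the same way. Of 79 cells, 70.9% had Sp7 (59.6 to 80.6) against 17.3% of 168 (11.9 to 23.8), 77.2% had Alpl against 46.4%, and 32.9% had Ibsp against 17.3%, the last with intervals that overlapped. In GP, Sp7 was read in 36.1% of the cells with Dlx5 (20.8 to 53.8) and 11.9% of those without (3.98 to 25.6), intervals that overlapped. Alpl was read in 63.9% and 40.5%, Runx2 in 41.7% and 30.95%, and Bglap in 25% and 16.7%, the same direction, with overlapping intervals. Ibsp was read in 22.2% and 23.8%, and Spp1 in 44.4% and 61.9%, the opposite direction, also with overlapping intervals. The GP cells with Dlx5 were deeper, with a median of 431466 reads other than Rn45s against 269200 in those without. Thinning left each of these directions unchanged.

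Msx1 cells showed the reverse for matrix genes. Of 106 cells, 9.43% had Bglap (4.62 to 16.7) against 34.8% of 141 (26.9 to 43.2), and 11.3% had Ibsp (5.99 to 18.9) against 30.5% (23.03 to 38.8). Runx2 (50.9% and 47.5%) and Alpl (60.4% and 53.2%) had overlapping intervals. The Alpl difference changed sign, to -1.47 points after thinning and -4.76 without SAG plate 2. Sp7 was less frequent in Msx1 cells, by a difference of -5.75 points, -15.3 after thinning and -15.5 without SAG plate 2. The direction for Bglap and Ibsp was the same after thinning, without SAG plate 2, and within PF, COR and SAG plate 1. Msx2 cells resembled them, with Ibsp in 9.43% against 25.8% and Bglap in 13.2% against 26.8%, and here the intervals overlapped.

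**Figure D5:**
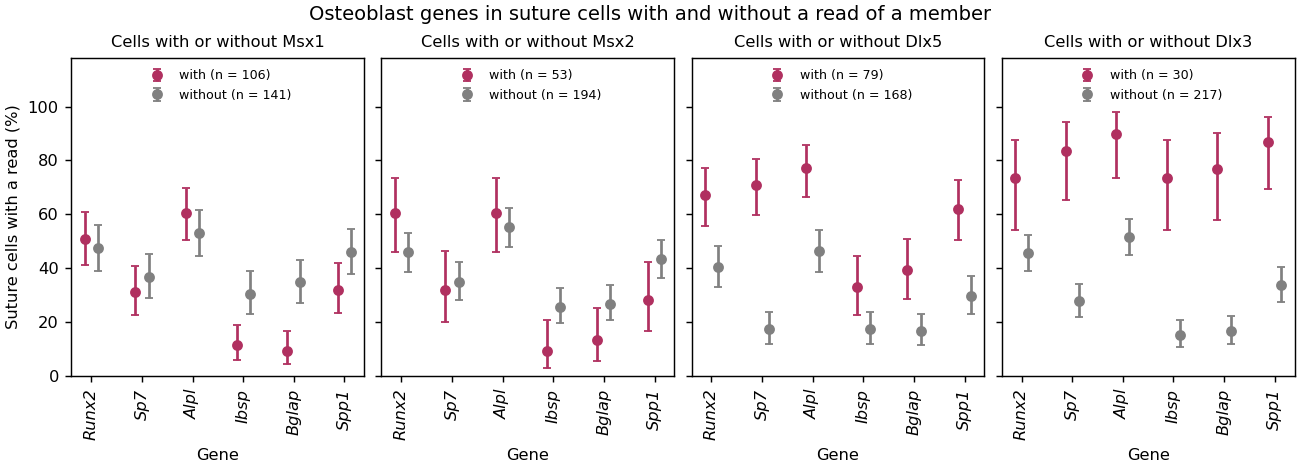
Share of suture cells (vertical axis, percent) with a read of 6 osteoblast genes, among cells with (red) or without (grey) a read of Msx1, Msx2, Dlx5 or Dlx3, with 95% Clopper-Pearson intervals. Red points lie above grey for every gene in the Dlx5 and Dlx3 panels, and below grey for Sp7, Ibsp, Bglap and Spp1 in the Msx1 panel.

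Likeness to other genes was measured as Pearson correlation of log2(CPM+1), as a description. Over the 247 suture cells with plate means subtracted, and among genes read in at least 10% of them, the closest to Dlx5 were Sp7 (r = 0.40), Pth1r, the parathyroid hormone receptor gene (0.40), Tmem123 (0.39), Npnt (0.37) and Ifngr1 (0.37). Those closest to Msx1 were Tpst1 (0.36), Cdkn1c, a cell cycle inhibitor gene (0.36), Oaz2 (0.36), Smoc2 (0.34) and 1500015O10Rik (0.33). For Msx2 they were Ecm2 (0.33), B3galnt1, C1qtnf2, Il11ra1 and Tnfaip8 (0.29 each). These values are weak, in sparse counts, and cells of a plate share its depth and handling.

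Over the 8 plates, among 10682 genes, Msx1 was closest to Ifitm10 (0.95), Aldh3a1 (0.95), Mtcp1 (0.94), Fancc (0.94) and Six2, a homeobox gene of the skull and face (0.93). Msx2 was closest to Lman2l (0.97), Tmem135 (0.97), Col26a1 (0.96), Tmem154 (0.95) and Slc27a4 (0.95). Dlx5 was closest to Iqcc (0.98), Lca5 (0.97), Elac2 (0.96), Isg20l2 (0.96) and Prss35 (0.95), and the sum of the 7 genes to Slc17a9 (0.95). With SAG plate 2 left out, the genes named for Msx1 ranked 9 to 46 and those for Msx2 7 to 35. Those for Dlx5 ranked 3 to 24, and Slc17a9 ranked 7. The r values stayed high, at 0.91 for Six2 at rank 46. Over all 8 plates, Msx1 and Msx2 had r = 0.81 with each other, and Msx1 and Dlx5 had r = -0.46. Without SAG plate 2 these were 0.82 and -0.13, so the size of the negative value rested on that plate. With 8 points and this many genes, high values are common.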

How the data were processed

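The 7 genes and all lists were chosen with earlier results of these data known. The values are raw read counts per gene and cell, deposited by the authors in 8 tables. Per the labels and the methods, STAR 2.5.3a aligned the reads to mm9 and HTSeq is named, and the submitters' processing notes also name Seurat 2.3.0 and R 3.4.4. The gene annotation and strand setting are not given in the sources used here.

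Cells with at least 500 genes and 10000 reads were kept (325 of 360, from 3628 to 938318 reads other than Rn45s per cell). Of the 35 removed, 1 held reads of the 7 genes. Reads were summed per tissue and plate and divided by the reads other than Rn45s, and differences are log2(CPM+1), which understates changes of weakly expressed genes. A gene passed the fold at a difference of at least 1 with every plate comparison of one sign. Poisson and Clopper-Pearson intervals are at 95%. Single wells were sorted, so no doublet caller was run. All 7 genes are named. Of the 24 list genes, those past the fold in at least 2 sutures against GP are named with levels. For likeness, the 5 closest genes are named. The osteoblast genes compared in cells with and without a member, and the genes named there, were chosen after the values were seen. No cells were clustered. Values of some list and marker genes are not reported here. Scripts used Python 3.11.15, pandas 2.3.3, NumPy 2.4.6, SciPy 1.17.1 and R 4.3.3 with edgeR 4.0.16 for TMM factors, and were tested on simulated data. Coordinates of genes come from GENCODE models of mm9, and promoters from RefSeq. Alternatives were other scalings, filters, pseudocounts, thinning and leaving out plates or cells.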

Additional observations from a re-analysis of the deposited data

How the results depend on the processing

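Msx1 and Msx2 stayed past the fold above GP in PF, SAG, COR and the mean of the sutures under all 14 settings, main value included, with lowest log2 differences of 1.41 for Msx1 (COR) and 1.66 for Msx2 (PF). Dlx3 in PF did so too, from 1.46 to 4.93. The sum of the 7 genes against GP, 0.59 in PF, 0.92 in SAG, 1.14 in COR and 0.90 for the mean, moved to -0.87 in SAG with Rn45s counted. As a mean of per-cell CPM it was 0.021, 0.54, 0.74 and 0.47, and on plate 1 alone 1.25, 1.37, 1.60 and 1.42. On plate 1 alone 5 genes passed the fold upward in COR instead of 3. From 0 genes lower than GP, the count rose to 1 in PF and 1 in SAG as a mean of per-cell CPM, to 1 in PF and 2 in SAG on plate 2 alone, and to 1 in SAG with thinned cells. The share of suture cells with any of the 7 genes, 69.2%, was 84.02% with the stricter filter, 58.3% with 10 reads required, and 76.4% without SAG plate 2, a setting chosen after seeing the data. With 10 reads required, 39.5% of Msx2 cells had Msx1. At that threshold Msx1 was found in 26.4% of all PF, 25.6% of all SAG and 28.4% of all COR cells. With Rn45s counted, the Msx1 difference turned over, to 0.66 between PF and SAG and -0.035 between SAG and COR. The cause of these changes was not tested, beyond the fewer cells or reads that a setting leaves by construction. The stricter filter left 0 cells of SAG plate 2. No paired analysis was possible because plate numbers are shared by name only and no test was run between tissues. Dlx1, Dlx2 and Dlx6 were read in few cells, and the part of depth in this was not tested. With 1 sample per tissue, plate and tissue cannot be told apart.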
